A study of Mus musculus with 8 samples.

Results

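The MAP kinase cascade genes of D1 cells were chosen by name. They are the mouse protein-coding genes whose symbol is Mapk, Map2k, Map3k or Map4k followed only by a number. The mm9 annotation held 41 gene records of this kind under 40 symbols, since Map3k4 has a pair of overlapping records on opposite strands, of which the longer was kept. The 40 genes were set beside all 22253 protein-coding genes and comprised 13 Mapk, 7 Map2k, 15 Map3k and 5 Map4k genes.

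The cascade passes a signal by phosphorylation from the Map4k to the Map3k kinases, from these to the Map2k kinases, and from these to the MAP kinases, which act on transcription factors and other kinases. Its best known arms end in ERK, JNK and p38, and all of them are used by dendritic cells (DCs) when pattern recognition receptors are engaged. Dectin-1, the receptor for the β-glucan curdlan, signals through Syk both to this cascade and to calcium and calcineurin, the phosphatase that sends NFAT proteins to the nucleus and that FK506 blocks. AP-1, a factor fed by MAP kinases, can bind DNA together with NFAT.

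D1 cells are a long-term DC line from mouse spleen, which for the NFATc2 ChIP carried a stable transgene for V5-tagged NFATc2. The labels name NFAT only for that ChIP and its input, and do not say whether the cells of the H3K4me3 libraries carried the tagged protein. NFATc2 was recovered through this tag after 30 min of curdlan at 10 µg/ml, so its sites are those of a protein added to the cells, and no NFATc2 library of non-treated (NT) cells was analysed here. H3K4me3, the histone mark of active and poised promoters, was recovered from NT cells, after 2 h of curdlan at 10 µg/ml, and after 2 h of the same curdlan with FK506, whose dose the labels of these libraries do not give. Each of these 4 conditions had 1 ChIP library and 1 input library, of 14377535 to 21289349 ChIP tags. There was therefore no spread between replicates, no test between conditions was possible, and every interval below covers counting error only. Of 14 marker genes of dendritic and myeloid cells 13 had an H3K4me3 peak at a transcription start site (TSS) in all 3 lists, Flt3 being the exception, against 3 of 14 markers of other cells (Lck, Klf1 and Cdh1).

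Sequences at some NFATc2 sites of the cascade genes are given first. They are examples chosen after their values were seen and not a ranking by strength. Other sites with more tags than some of those shown are left out, among them sites of Map3k3, Map3k8, Map3k9, Map3k14, Map4k4 and Mapk14. Each is the 100 bp around a peak summit, 5′ to 3′. Capitals mark GGAAAA, the core that NFAT proteins bind, read on either strand and so also as TTTTCC. They also mark TGANTCA, a loose pattern for AP-1 that allows any base at its centre and is its own reverse complement. The Mapk8 and Map3k1 sites are shown as the only sites of the cascade genes with both motifs within 100 bp of the summit.
Map4k3 intron, 197 tags, chr17:81092410-81092509, plus strand: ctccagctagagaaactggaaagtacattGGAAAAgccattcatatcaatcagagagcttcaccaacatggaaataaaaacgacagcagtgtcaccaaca
Map4k3 intron, 111 tags, chr17:81115684-81115783, plus strand: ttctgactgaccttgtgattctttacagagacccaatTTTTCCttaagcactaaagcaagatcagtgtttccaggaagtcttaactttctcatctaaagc
Mapk14 intron, 143 tags, chr17:28835259-28835358, plus strand: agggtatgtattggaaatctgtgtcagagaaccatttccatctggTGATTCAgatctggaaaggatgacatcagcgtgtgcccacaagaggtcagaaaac
Map2k3 intron, 108 tags, chr11:60748908-60749007, plus strand: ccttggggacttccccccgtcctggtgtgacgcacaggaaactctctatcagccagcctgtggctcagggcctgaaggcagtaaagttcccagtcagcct
Map2k4 upstream, 65 tags, chr11:65604418-65604517, plus strand: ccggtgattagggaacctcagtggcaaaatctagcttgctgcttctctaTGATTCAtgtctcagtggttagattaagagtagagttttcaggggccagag
Mapk8 intron, 55 tags, chr14:34237449-34237548, plus strand: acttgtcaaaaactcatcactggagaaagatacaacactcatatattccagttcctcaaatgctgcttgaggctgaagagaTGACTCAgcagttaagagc
Map3k1 upstream, 65 tags, chr13:112616995-112617094, plus strand: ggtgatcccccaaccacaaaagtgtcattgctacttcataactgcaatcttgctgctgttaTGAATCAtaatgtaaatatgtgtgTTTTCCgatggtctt

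Both Map4k3 sites carried the NFAT core close to the summit, 16 and 8 bp away. The Mapk14 and Map2k4 sites had TGATTCA, a match to the loose AP-1 pattern, at the summit and no GGAAAA within 100 bp. At the Map3k1 site TGAATCA and TTTTCC lay 17 bp apart. At the Mapk8 site the gap was 21 bp, and its GGAAAA lay just outside the printed bases. These are matches of letters and not measured contacts.

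H3K4me3 marked most of the cascade. A peak overlapped the 1 kb to either side of a TSS in all 3 lists for 32 of the 40 genes, where the share over all protein-coding genes was 48.1%. The other 8 genes had such a peak in no list, where the share over all genes was 50.4%. No gene of the cascade gained or lost its peak between conditions. Such differences were rare over all genes too: 10903, 10883 and 10853 had a peak in the NT, curdlan and FK506 lists, and 10705 in all 3. A missing peak says that the signal stayed under the threshold of the peak caller, not that the mark was missing.

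The genes without the mark fell in 3 of the 4 tiers. Among the MAP kinases they were Mapk4 (ERK4), Mapk10 (JNK3, the neuronal JNK), Mapk12 (p38γ, known from muscle) and Mapk15 (an atypical ERK). Among the Map2k genes the gene without a mark was Map2k6, one of the p38 activators. Among the Map3k genes they were Map3k6, Map3k13 and Map3k15, which include relatives of the stress kinase ASK1 (Map3k5). All 5 Map4k genes were marked. The marked MAP kinases included members of each arm: Mapk3 (ERK1), Mapk8 and Mapk9 (JNK1 and JNK2), Mapk11, Mapk13 and Mapk14 (p38β, p38δ and p38α), and Mapk7 (ERK5), along with the atypical Mapk6 (ERK3).

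**Figure D1:**
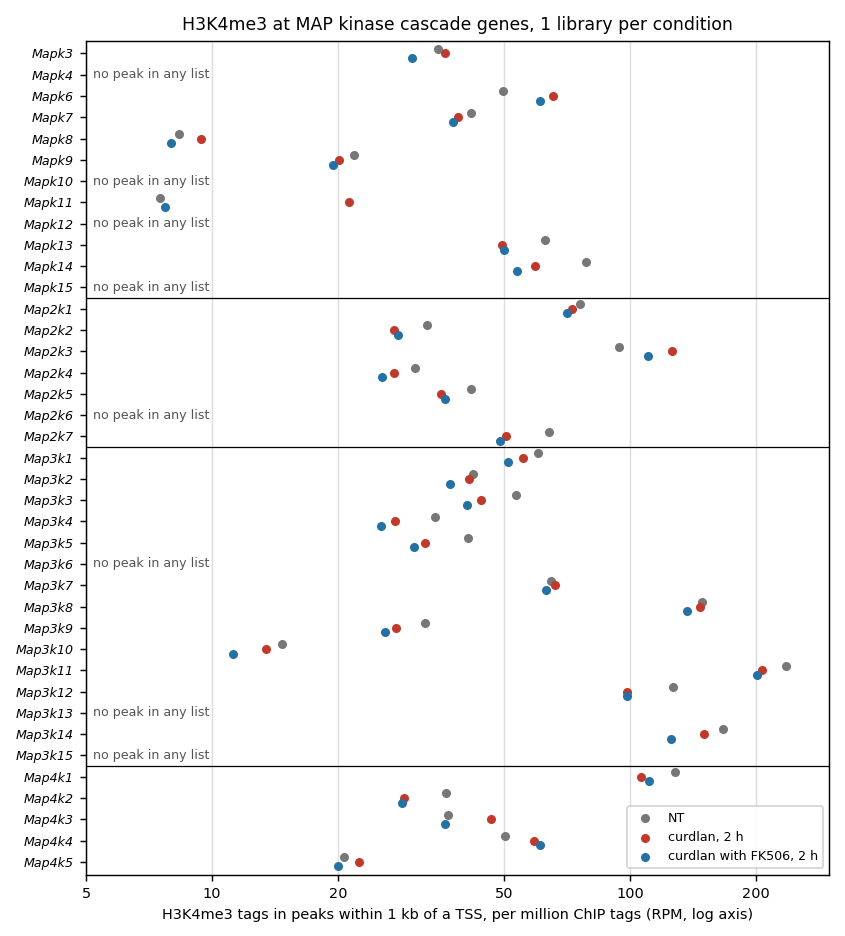
H3K4me3 tags in the peaks, per 1000000 ChIP tags (RPM, log axis), within 1 kb of a TSS for 39 of the 40 genes, in the NT, curdlan and curdlan with FK506 libraries, 1 point per library. The 3 points of a gene mostly lie together, Mapk11 being the gene with the widest gap, and 8 genes have no peak.

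The level of the mark is given as the tags in the peaks of a gene, scaled to 1000000 ChIP tags of the library (RPM), and, for comparison between genes, per kb of peak. The 32 marked genes had a median of 45.8 RPM in NT cells, 45.3 with curdlan and 39.2 with curdlan and FK506. Over all protein-coding genes with a peak these medians were 46.1, 42.7 and 41.3. The marked regions of the cascade genes were 1204 to 7081 bp long in NT cells, with a median of 3416.5 bp.

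Of the MAP kinases, Mapk14 carried the most tags in NT cells. Mapk14, the main p38 of immune cells, had 78.3 RPM in NT cells, 59.4 with curdlan and 53.8 with curdlan and FK506. These are the sums of a main peak of 1179, 1126 and 914 tags and a small one of 126, 139 and 133 tags, and the small one also lies at the start of Slc26a8. Mapk3 (ERK1), which ends the ERK arm, had 34.7, 36.1 and 30.2 RPM. Mapk13 (p38δ) had 62.7, 49.5 and 50.03, higher in NT cells than in either curdlan library, and per kb of peak it had the highest NT level of the MAP kinases, 20.6 RPM.

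The JNK genes were weakly marked. Mapk8 (JNK1) had 8.34, 9.39 and 7.96 RPM in NT, curdlan, and curdlan with FK506. Mapk9 (JNK2) had 21.9, 20.1 and 19.5. Per kb of peak, Mapk8 had 6.93 and Mapk9 9.33 RPM in NT cells, against a median of 14.4 over the 32 marked genes. The lowest level per kb in NT cells was that of Mapk11, at 4.17.

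Among the Map2k genes, Map2k3, which activates p38, carried the most tags in every list, 94.2 RPM in NT cells, 126 with curdlan and 110.3 with curdlan and FK506. Map2k4, which activates JNK and p38, had the fewest, 30.6, 27.2 and 25.6 RPM. Map2k1 (MEK1), which activates ERK, held 75.8, 72.7 and 70.6, a range narrower than that of its relative Map2k2 (MEK2), which had 32.7, 27.2 and 27.8. Map2k7, which activates JNK, had 64.0, 50.4 and 49.0, and Map2k5, which activates ERK5, 41.6, 35.2 and 36.0. Apart from Map2k3, every marked Map2k gene had its highest RPM in NT cells, where the median RPM over all genes with a peak was also highest. Relative to the median change over all genes, Map2k1 was higher by 0.07 on the log2 scale in each curdlan library, which is within counting error. Per kb of peak the 6 genes were close together in NT cells, from 12.03 RPM at Map2k2 to 15.6 at Map2k7, so the tags of Map2k3 came with a long region.

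The Map3k tier held the widest range of levels. Map3k11 (MLK3), an activator of JNK, had 236 RPM in NT cells, 207 with curdlan and 201 with curdlan and FK506, the most of the cascade in every list, but its region also covers the start of Pcnxl3. Map3k10 (MLK2), a close relative, had 14.7, 13.5 and 11.2, the fewest of its tier. Per kb of peak the NT levels of these kinases were 34.3 and 6.18 RPM, so the gap was not only one of peak length.

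Of the Map3k genes known from innate signalling, Map3k14 and Map3k8 followed Map3k11 in level per kb of peak, with 23.8 and 22.8 RPM in NT cells. Map3k14 (NIK), which opens the non-canonical NF-κB pathway, had 167, 150.3 and 125 RPM in NT, curdlan, and curdlan with FK506. Map3k8 (TPL2), which links Toll-like receptors to ERK, had 148, 147 and 137. Map3k7 (TAK1), shared by the NF-κB and MAP kinase pathways, had 64.7, 66.2 and 63.0, a level that hardly differed between libraries. Map3k3 and Map3k9 had 53.4, 44.0 and 40.7, and 32.3, 27.5 and 25.9 RPM. Map3k1, Map3k2, Map3k4 and Map3k5 lay between 25.3 and 60.1 in all libraries. Map3k12 (DLK) had 127, 98.5 and 98.2, and the larger of its peaks also covers the start of Tarbp2.

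Of the Map4k genes, Map4k1 (HPK1), a kinase of blood cells that restrains antigen receptor signalling, carried the most, at 128, 106 and 110.9 RPM, in a region that also covers the start of Eif3k. Map4k5 had the fewest, 20.7, 22.5 and 20.03, and shares its region with Atl1. Per kb of peak the NT levels of Map4k1 and Map4k5 were 22.5 and 10.02 RPM, the ends of this tier. Map4k2, whose region is shared with Men1, had 36.2, 28.8 and 28.6. Map4k3 (GLK) had 36.7 RPM in NT cells, 46.6 with curdlan and 36.2 with curdlan and FK506. Map4k4 (HGK) had 50.2, 58.9 and 60.9, so that the value with FK506 was near that of NT cells at Map4k3 and above it at Map4k4.

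The effect of curdlan and of FK506 on the mark was then compared gene by gene. A change is the log2 ratio of RPM between libraries, centred on the median over all protein-coding genes with a peak in both, and a gene was called past 1.5-fold. Before centring, these medians were -0.13 for curdlan over NT, -0.05 for curdlan with FK506 over curdlan and -0.18 for curdlan with FK506 over NT. The curdlan library serves in both of the first comparisons, so a high count there lifts one and lowers the other. A change in the share of cells that carry the mark and a change of the mark within each cell cannot be told apart.

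Mapk11 (p38β) was the cascade gene past 1.5-fold. Its peak held 125 tags in NT cells, 453 with curdlan and 150 with curdlan and FK506, or 7.502, 21.3 and 7.70 RPM. The curdlan library stood above the other 2, which were close to each other. The centred change was 1.63 on the log2 scale for curdlan over NT (95% counting interval 1.34 to 1.93), or 3.10-fold, and -1.42 for curdlan with FK506 over curdlan (-1.70 to -1.15). For curdlan with FK506 over NT it was 0.22.

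With curdlan the called peak at Mapk11 was also longer. Peak ends depend on the threshold of the peak caller, so a wider mark and a higher one cannot be told apart here. The peak was 1798 bp long in NT cells, 4141 bp with curdlan and 1837 bp with curdlan and FK506. From the 5′-most start it reached 1329 bp into the gene in NT cells, 3136 bp with curdlan and 1351 bp with curdlan and FK506, in a gene of 7121 bp. Upstream it reached 468, 1004 and 485 bp. Per kb of peak the levels were 4.17, 5.14 and 4.19 RPM, and on that measure the centred change of 0.48 for curdlan over NT was not past 1.5-fold. The fold enrichment of the peak over its local background was 27.45, 60.56 and 28.02. On that measure the centred change was 0.41 for curdlan over NT, not past 1.5-fold. For curdlan with FK506 over curdlan it was -0.84, past 1.5-fold, where 14.1% of all genes were also lower past it.

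**Figure D2:**
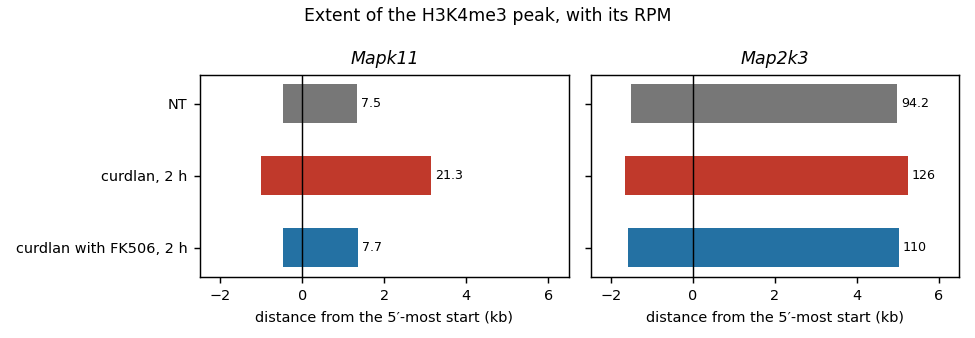
Extent of the H3K4me3 peak in kb from the 5′-most start (0, transcription to the right) for Mapk11 and Map2k3 in the 3 libraries, with the RPM of the peak at the end of each bar. The Mapk11 region is longer with curdlan than in either other library, whereas that of Map2k3 is of like length in all 3.

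Calls past 1.5-fold were more frequent among weakly marked genes than among all genes. Over all protein-coding genes 3.65% were higher past 1.5-fold with curdlan, and among the 852 genes with 0.5 to 2 times the NT tags of Mapk11, a range chosen after its values were seen, 12.2% were. Mapk11 stood at rank 46 of 10774 genes by this change. Genes that were both higher with curdlan over NT and lower with FK506 over curdlan, each past 1.5-fold, numbered 64 of 10705. No NFATc2 summit lay near Mapk11, the nearest being 62761 bp from its TSS. Its neighbour Mapk12 (p38γ), which starts just beyond its 3′ end on the same strand, had no peak at its own TSS in any list.

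The Mapk11 promoter is shown beside those of Map2k3, the p38 activator with a long marked region, and Map2k6, the p38 activator without a peak. Each is the 250 bp before the 5′-most start, on the strand of the gene, with CpG dinucleotides in capitals. They number 18, 17 and 14.
Mapk11 promoter, chr15:88980037-88980286, minus strand: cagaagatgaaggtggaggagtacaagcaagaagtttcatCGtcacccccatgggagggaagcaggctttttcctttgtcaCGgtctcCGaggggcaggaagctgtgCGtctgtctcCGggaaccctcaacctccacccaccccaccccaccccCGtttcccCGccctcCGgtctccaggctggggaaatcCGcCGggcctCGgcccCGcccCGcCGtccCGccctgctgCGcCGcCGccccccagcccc
Map2k3 promoter, chr11:60745285-60745534, plus strand: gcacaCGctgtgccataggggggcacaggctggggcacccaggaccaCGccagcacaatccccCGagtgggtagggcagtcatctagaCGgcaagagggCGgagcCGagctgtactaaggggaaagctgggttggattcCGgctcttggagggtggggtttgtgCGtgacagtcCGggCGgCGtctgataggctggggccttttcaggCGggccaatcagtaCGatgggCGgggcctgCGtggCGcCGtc
Map2k6 promoter, chr11:110260186-110260435, plus strand: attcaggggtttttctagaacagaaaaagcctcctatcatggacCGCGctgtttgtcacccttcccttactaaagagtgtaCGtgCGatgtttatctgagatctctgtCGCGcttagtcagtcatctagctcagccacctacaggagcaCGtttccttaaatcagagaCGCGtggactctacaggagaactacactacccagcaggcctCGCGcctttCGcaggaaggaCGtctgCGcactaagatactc

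For the rest of the cascade the changes were small. With curdlan over NT, 1 of 32 genes (Mapk11) was higher past 1.5-fold, where 3.65% of all genes were. Lower past 1.5-fold were 0, where 1.22% of all genes were. The median change of the 32 was -0.01, with quartiles at -0.15 and 0.17, and 16 genes lay above 0 and 16 below. Over all genes the quartiles were -0.14 and 0.15, close to those of the cascade genes.

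The genes next to Mapk11 stopped short of 1.5-fold in RPM, and their order depended on that measure. Map2k3 had a change of 0.54 (counting interval 0.45 to 0.63), or 1.46-fold, and Mapk6 (ERK3) one of 0.53, from 49.6 to 65.6 RPM, with 60.8 in the library with FK506. Map4k3 had a change of 0.47 (0.33 to 0.62) and Map4k4 one of 0.36. The lowest change in RPM was that of Mapk14, at -0.27 (-0.38 to -0.16). By the fold enrichment of the strongest peak, Map2k3 (0.73) and Map4k3 (0.65) were past 1.5-fold. Mapk6 turned to -0.30, and Map4k4 turned to -0.74, past 1.5-fold in the other direction. Such calls were common on that measure: 7 of 32 genes were higher, where 14.0% of all genes were, and 4 lower, where 14.3% were.

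With FK506 over curdlan, 1 of 32 genes (Mapk11) was lower past 1.5-fold, where 1.14% of all genes were, and 0 were higher, where 0.381% of all genes were. The median was -0.04. After Mapk11 the lowest was Map4k3, at -0.32 (-0.46 to -0.18), followed by Map3k14 and Map3k10, each at -0.22. The highest was Map4k1, at 0.11. Of the genes next to Mapk11 with curdlan, Map2k3 was at -0.14 and Mapk6 at -0.07, against -1.04 and 0.25 by fold enrichment.

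Between curdlan with FK506 and NT cells, 0 of 32 genes were past 1.5-fold in either direction, where 2.89% of all genes were higher and 1.24% lower. The largest values were those of Mapk6 (0.47), Map4k4 (0.46) and Map2k3 (0.41), and the lowest that of Mapk14 (-0.37). By fold enrichment the direction of the first 3 turned, to -0.05, -0.34 and -0.30. This comparison uses the same libraries as the other 2.

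**Figure D3:**
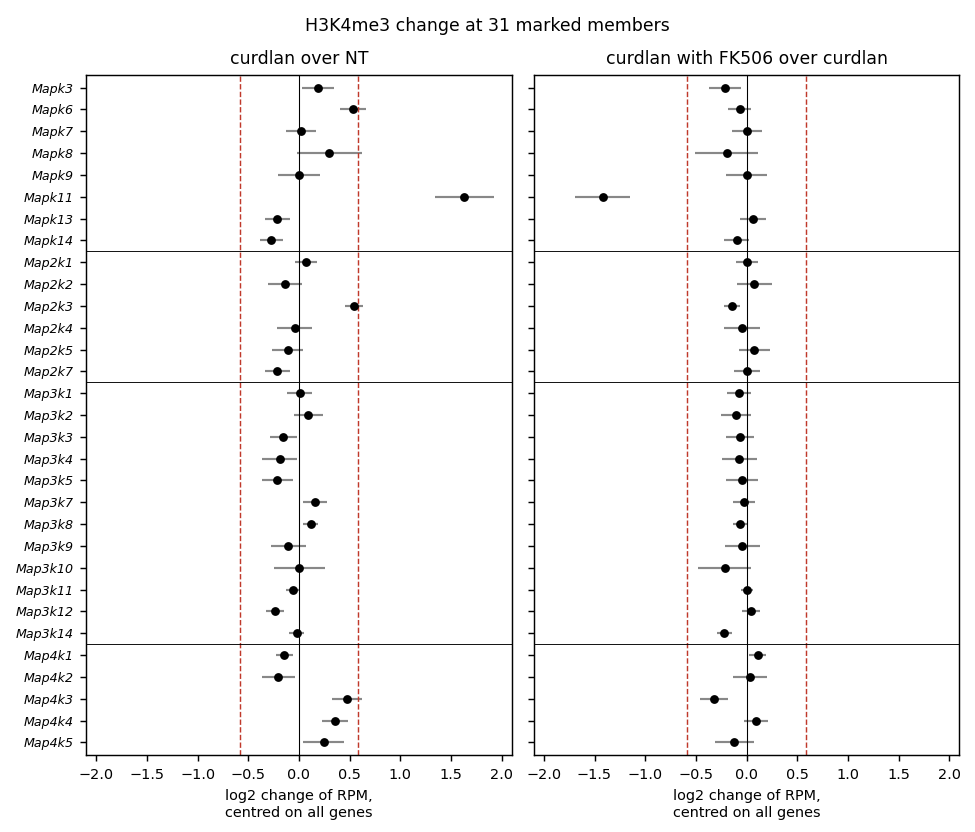
Centred log2 change of H3K4me3 RPM for 31 of the 32 marked genes, curdlan over NT on the left and curdlan with FK506 over curdlan on the right, with 95% counting intervals as bars and 1.5-fold as dashed lines. Mapk11 is the gene beyond the lines on both sides, at 1.63 and -1.42, and both panels share the curdlan library.

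NFATc2 sites were then placed against the genes by the summit of each peak. Of the 40 genes, 16 had a summit no more than 20 kb from a TSS, where the share over all genes was 24.1%. A TSS here is the start of any annotated transcript, so genes with internal starts offer more room for a site. Mapk8, Map3k3 and Map4k4 counted through internal starts, their sites being more than 20 kb from the 5′-most start. Of the 32 marked genes 16 had one, where the share over all marked genes was 37.3%. Of the 8 genes with no mark 0 had one, where the share over all unmarked genes was 11.3%. By tier, 6 Mapk, 2 Map2k, 6 Map3k and 2 Map4k genes had such a site.

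Sites inside the genes were also common. A summit lay inside 16 of 40 genes, where the share over all genes was 13.0%. The cascade genes are long, with a median of 52387 bp against 15488 bp over all genes, so the density is the fairer measure. It was 1.02 summits per 100 kb of gene for the cascade and 0.478 for all genes, and 1.38 and 0.819 when only genes with a peak in all 3 H3K4me3 lists were taken. In all, 20 genes had a site by either rule and 20 by neither.

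The 20 genes held 38 distinct sites. Of these 26 lay in an intron, 1 in an exon outside coding sequence, 9 upstream and 2 downstream. Within 1 kb of a TSS there were 2, at Map2k3 and Map3k8. For 34 of the 38 the nearest protein-coding TSS was that of the gene itself. Their median was 60.5 tags, against 63 over all 9438 NFATc2 peaks.

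The shares of sites with each motif were close to those over all NFATc2 peaks for either motif alone. GGAAAA lay within 100 bp of the summit at 17 of 38 sites (44.7%), against 45.6% of all peaks, and TGANTCA at 8 (21.1%), against 21.8%. Both lay at 2 sites (5.26%), the Map3k1 and Mapk8 sites printed above, against 8.34%. A summit lay within an H3K4me3 peak of the curdlan library at 11 sites (28.9%), against 23.3% of all peaks.

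**Figure D4:**
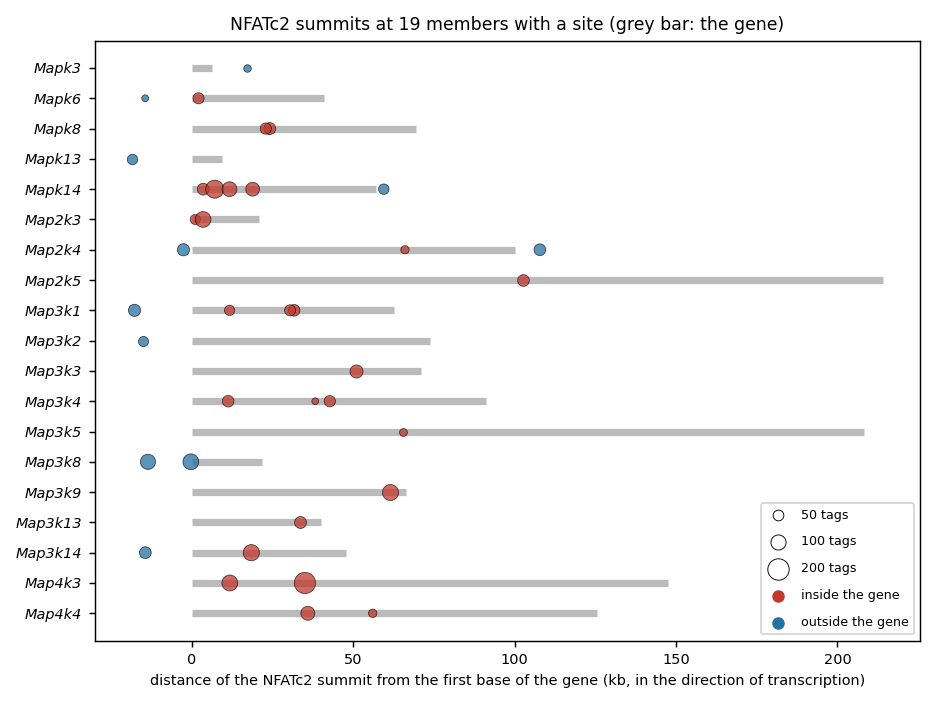
Position of each NFATc2 summit in kb from the first base of the gene, in the direction of transcription, for 19 of the 20 genes with a site. The grey bar is the gene, the area of a point follows its tags, and red points lie inside the gene. The largest point is the one in Map4k3 (197 tags), and Mapk14 has 4 points inside the gene.

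The strongest sites fell in all 4 tiers. Map4k3 had the strongest, 197 tags in an intron 34973 bp from its TSS, and another of 111 tags 11699 bp from it. The former stands at rank 616 of the 9438 NFATc2 peaks by tags.

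Mapk14 had the most sites. Summits of 61, 143, 96 and 84 tags lay in its introns, 2244, 5796, 10376 and 17545 bp from the TSS, and another of 48 tags lay downstream. That last site lies between Mapk14 and Mapk13 (p38δ), 18547 bp upstream of Mapk13, and counts for both. Mapk14 is thus the cascade gene with the most NFATc2 sites. In RPM it also had the lowest H3K4me3 change with curdlan, but per kb of peak the gene lower past 1.5-fold was Map2k4. The change of Map2k4 in RPM was -0.04, and its peak was 2025 bp long in NT cells and 3318 bp with curdlan. A link between the sites and the change was not tested.

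Map2k3 carried its sites within the mark. Summits of 45 and 108 tags lay in an intron, 952 and 3390 bp from the TSS, and both fell inside its H3K4me3 peak in all 3 libraries. Mapk6 had a site of 54 tags 1367 bp from its TSS and inside the mark, and one of 21 tags 14524 bp upstream and outside it. Map4k4 had 86 and 31 tags in introns, of which the stronger lay within an H3K4me3 peak at an internal position, 25162 bp from the nearest start. Map4k3, by contrast, had neither of its sites in the mark.

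Among the Map3k genes, Map3k8 (TPL2) had sites of 110 and 101 tags, 377 and 13676 bp upstream. Map3k14 (NIK) had 115 tags in an intron and 61 tags 14490 bp upstream. Map3k3 had 75 tags in an intron, and Map3k9 113 tags in its one exonic site, 61230 bp from the TSS. Map3k1 had 4 sites of 46 to 65 tags and Map3k4 had 3 of 20 to 59 tags. Map3k2 and Map3k5 had 1 each, of 45 and 27 tags.

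The other sites were few. Map2k4 had sites of 65 tags 2669 bp upstream, 30 tags in an intron and 60 tags downstream, and Map2k5 had 60 tags in an intron 102328 bp from the TSS. Mapk8 had 62 and 55 tags in neighbouring intronic sites, and Mapk3 25 tags downstream. Map3k13 was the unmarked gene with a site, of 62 tags in an intron 33535 bp from its TSS. No site by either rule was found at Mapk7, Mapk9, Mapk11, Map2k1, Map2k2, Map2k7, Map3k7, Map3k10, Map3k11, Map3k12, Map4k1, Map4k2 or Map4k5, although all were marked.

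The CpG content of the starts, which the choice by name did not use, varied within the cascade. The CpG dinucleotides in the 500 bp to either side of the 5′-most start, as observed over expected from the base content, had a median of 0.833 at the 32 marked genes (0.614 to 1.06) and of 0.581 at the 8 unmarked (0.227 to 0.836). Over all genes the medians were 0.738 with a peak and 0.259 without. At a ratio of 0.6 or more, 32 of 36 cascade genes had a peak, and 80.5% of all genes. The 4 with that ratio but no peak were Map3k6, Map3k15, Mapk4 and Mapk12. The 4 cascade genes below it, Map2k6, Map3k13, Mapk10 and Mapk15, had none. Over all genes 47.8% had a peak at a ratio from 0.4 to 0.6, the range of Map2k6 and Mapk15. From 0.2 to 0.4, the range of Map3k13 and Mapk10, 21.8% had one. This comparison was added after the peaks had been seen.

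**Figure D5:**
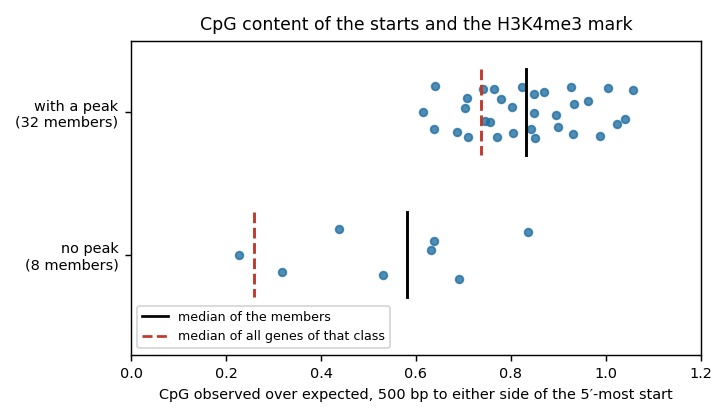
CpG observed over expected in the 500 bp to either side of the 5′-most start, 1 point per cascade gene, for the 32 genes with and the 8 without an H3K4me3 peak. Black lines are the medians of the cascade genes (0.833 and 0.581) and dashed lines those of all genes of that class (0.738 and 0.259). The groups overlap between 0.614 and 0.836.

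The genes around the cascade were described by a list of 48, of which 41 had an H3K4me3 peak in all 3 libraries (48.1% of all genes), 7 had none (50.4%) and 25 had an NFATc2 summit no more than 20 kb from a TSS (24.1%). With curdlan 3 of 41 were higher past 1.5-fold (3.65% of all genes) and 0 lower (1.22%). Rps6ka2 (RSK3), a kinase that ERK activates, went from 104 to 169 RPM and held 189.7 with FK506. Mapkapk3, a kinase that p38 activates, went from 98.5 to 141 and held 142. Traf6, the ubiquitin ligase that leads to TAK1, went from 44.7 to 68.9 and had 56.1 with FK506. Between curdlan with FK506 and curdlan 0 of the 41 were higher (0.381% of all genes) and 0 lower (1.14%), so within this list no gene had the rise and fall of Mapk11. The Raf kinases Araf and Braf had changes of -0.06 and 0.29 with curdlan.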

How the data were processed

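The series held 8 libraries, 4 of ChIP DNA and 4 of input, and 4 lists of peaks. Alignment by the authors was to mm9 with bowtie. MACS, given in the headers as version 1.4.2, was then run by them on each ChIP library against its own input, with peaks kept at a p-value of 1e-05 or less and 1 tag allowed at a position. The deposited lists give, for each peak, its ends, its summit and its count of tags, which is not normalized. They also hold a score (−log10 of the p-value times 10), a fold enrichment, which is a ratio over the local background, and an FDR in percent, all from the authors' peak caller. Peaks were not pooled. A region that passes the threshold in only 1 library gives no tags in the others, and a longer peak collects more tags.

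Genes came from Ensembl release 65 on NCBI build 37, the assembly called mm9. Of 37310 genes, 22253 protein-coding ones on the 20 chromosomes with peaks were used. The symbols Spi1, Syk and Zak were found under older names through a RefSeq table. Tags of all peaks within 1 kb of any transcript start were scaled to 1000000 ChIP tags of the library, written RPM, (file headers). Ratios were centred on the median of all genes and called past 1.5-fold. Intervals are exact binomial (95%). Motifs were sought on both strands within 100 bp of a summit, and sequences were read from the mm9 genome. The members and lists were chosen with earlier results of these data known. Counts and medians cover all 40 members, of which 1 is not reported on its own here. The others are named, and values are given in full for genes past 1.5-fold, those with the most and fewest tags in each tier, those without a peak and the 10 with the strongest NFATc2 sites. The programs were tested on simulated data. The work was done in Python 3.11.15 with pandas 2.3.3, numpy 2.4.6, pysam 0.24.0, scipy 1.17.1 and matplotlib 3.10.9.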

Additional observations from a re-analysis of the deposited data

How the results depend on the processing

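No paired analysis was possible because each condition had 1 library. Windows of 500 bp and 2 kb, joined regions, peaks with an FDR of 5% or less, protein-coding transcripts and a 2-fold limit left the H3K4me3 counts as they were, wherever each applied. Scaling to tags in all peaks could not change them, because centring removes any constant factor of a library. The fold enrichment of the strongest peak put 7 genes above and 4 below 1.5-fold for curdlan over NT, 2 above and 7 below for curdlan with FK506 over curdlan, and 3 above and 4 below for curdlan with FK506 over NT. On that measure 14.0% of all genes were higher and 14.3% lower in the first comparison, 13.7% and 14.1% in the second, and 13.5% and 13.7% in the last. With tags per kb of peak, 0 genes were higher and 1 lower (Map2k4) for curdlan over NT, with all genes at 1.46% and 1.04%, and 1 higher (Map2k4) and 0 lower for curdlan with FK506 over curdlan, with all genes at 0.474% and 0.436%. The Map2k4 peak was 3318 bp long with curdlan, against 2025 bp in NT cells and 2042 bp with curdlan and FK506. Without centring, the median change for curdlan with FK506 over NT was -0.21. Genes with an NFATc2 summit near a TSS numbered 9 within 10 kb, 25 within 50 kb, and 8 within 20 kb at a p-value of 1e-10 or less, with all genes at 16.3%, 39.9% and 13.4%. Genes with a summit inside numbered 10 at that p-value, with all genes at 7.496%. The single libraries set the limit: Mapk11 and Mapk8 rest on 125 and 139 tags in NT cells, and no repeat of any condition was analysed.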
